A study of Mus musculus with 3 samples.

Results

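The 10 genes described here carry MHC class I antigen presentation: the heavy chains H2-K1 and H2-D1, the light chain B2m, the peptide transporter Tap1 and Tap2, the loading factor Tapbp, the inducible proteasome subunits Psmb8, Psmb9 and Psmb10, and the transcriptional regulator Nlrc5. They were taken by name from the 32285 genes of the count matrices, without use of any measured value. All 10 were found. The cells came from dorsal skin of C57BL/6J mice and were sequenced from their 3′ ends in droplets, with a single library each for CON, UV and Rux. CON skin received vehicle and no light. UV skin received vehicle and, on alternate days over 12 weeks, a mixture of UVA (0.60 mW/cm2) with UVB (3.5 mW/cm2). Rux skin received the same light and, after each exposure, a 1.5% ointment of ruxolitinib, an inhibitor of the kinases JAK1 and JAK2. Mice were wild type. Their age was given as 8 weeks where their purchase is described, and the 12 weeks of exposure came after it. Skin was taken on the day after the last exposure, and the number of mice behind a library was not stated. With 1 library per condition no test between conditions was possible, and each interval below is a 95% interval of counting error only, blind to differences between mice or preparations.

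Class I molecules display peptides from inside the cell to CD8 T cells. The proteasome cuts proteins into peptides, the TAP transporter carries them into the endoplasmic reticulum, and tapasin helps to load them onto the heavy chain and B2m. Interferons act through JAK kinases and STAT factors to raise these genes, in part through NLRC5, and exchange standard proteasome subunits for inducible ones.

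The libraries held 11287 to 13170 called cells and 131570327 to 165337289 UMIs, and after filtering 9299 to 10777 cells remained at a median of 7549 to 9432 UMIs per cell. Any 2 libraries shared 28 to 50 barcodes among the called cells. The labels give female mice, yet the Y-linked gene Ddx3y stood at 110 to 121 CPM and Xist at 0.092 to 0.119 CPM in the 3 libraries. CPM are UMIs of a gene scaled to a common total of the cells summed. Those cells were the whole library here, and below a class or cluster within a library. Cells were grouped into 47 clusters with the class I genes left out, and 35 clusters took a name from lineage markers and 12 did not. Of 17 named classes, 9 had at least 100 cells in every library and carry the comparisons. They were fibroblast-like (FB-like), basal keratinocyte-like (KB-like), hair matrix-like (HM-like), lymphatic endothelial-like (LEC-like), vascular endothelial-like (VEC-like), pericyte-like (PCY-like), Schwann-like (SCH-like), myeloid-like (MYE-like) and lymphoid-like (LYM-like) cells.

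Of the 10 genes, 7 lie on mouse chromosome 17 (GRCm38, GENCODE M21). Tap1 (chr17:34187553-34197225, plus strand), Psmb9 (chr17:34181987-34187764, minus strand), Psmb8 (chr17:34197721-34201454, plus strand) and Tap2 (chr17:34203527-34216321, plus strand) are neighbours. H2-K1 (chr17:33996017-34000347, minus strand), Tapbp (chr17:33915899-33929292, plus strand) and H2-D1 (chr17:35262730-35267499, plus strand) lie on either side of them. B2m is on chromosome 2 (chr2:122147686-122153083, plus strand), and Psmb10 (chr8:105935735-105938444, minus strand) and Nlrc5 (chr8:94434356-94527272, plus strand) are on chromosome 8. All are protein-coding. H2-K1 belongs to a family of near-identical heavy chains. Of the 75-base windows in the last 500 bases of its transcripts, 1.81% also occur in another gene, and none of H2-D1 do, so a small part of H2-K1 reads could be assigned elsewhere. The figure was 1.39% for Tapbp, shared with its neighbour Zbtb22.

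Upstream sequence from RefSeq (GRCm38.p6) was found for 8 of the 10 genes, and not for Tap2 and Nlrc5. It is shown for the heavy chains, the light chain and the interval between the divergent starts of Tap1 and Psmb9. These genes were chosen with their values known, and Tapbp, Psmb8 and Psmb10 are not shown. Any link between the sequences and the levels was not tested. GENCODE places earlier starts for H2-D1 and Psmb9 than RefSeq does. Capitals mark interferon-element-like letters (GAAANNGAA or GAANNGAAA) and X2-like letters (TGACG), on either strand.
H2-K1, chr17:34000348-34000547, minus strand: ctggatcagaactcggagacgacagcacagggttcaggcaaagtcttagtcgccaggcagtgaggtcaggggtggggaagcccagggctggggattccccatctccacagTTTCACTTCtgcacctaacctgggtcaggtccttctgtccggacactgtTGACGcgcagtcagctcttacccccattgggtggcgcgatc
H2-D1, chr17:35262894-35263093, plus strand: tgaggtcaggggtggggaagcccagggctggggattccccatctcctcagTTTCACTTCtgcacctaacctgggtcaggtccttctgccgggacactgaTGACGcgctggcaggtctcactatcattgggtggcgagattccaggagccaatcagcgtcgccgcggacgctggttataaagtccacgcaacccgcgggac
B2m, chr2:122147487-122147686, plus strand: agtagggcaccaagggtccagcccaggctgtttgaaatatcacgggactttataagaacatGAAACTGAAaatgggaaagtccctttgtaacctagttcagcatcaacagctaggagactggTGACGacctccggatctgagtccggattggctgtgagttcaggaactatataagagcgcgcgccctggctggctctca
Tap1 and Psmb9, chr17:34187331-34187555, plus strand: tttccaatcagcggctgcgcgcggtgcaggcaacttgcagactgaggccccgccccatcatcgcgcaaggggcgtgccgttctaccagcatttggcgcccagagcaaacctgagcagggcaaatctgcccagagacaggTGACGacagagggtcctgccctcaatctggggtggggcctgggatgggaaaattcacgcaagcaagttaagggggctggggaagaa

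Of the 8 genes, 2 (H2-K1 and H2-D1) held GAANNGAAA and 1 (B2m) held GAAANNGAA. Of 32851 windows of 250 bases before a RefSeq start, 6.31% and 7.13% held them. GAANNGAAA was added after the sequences were seen, so its share is a description and not a test. The X2-like letters were present for 5 of the 8 genes (H2-K1, H2-D1, B2m, and Tap1 and Psmb9, which share the site) and in 17.8% of all windows, and CCAAT for 6 of 8 and in 33.8%. The letters TTCNNNGAA of a STAT site were found for Psmb8 alone, and in 7.02% of all windows. These matches describe letters and not bound sites.

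The heavy chains and B2m differed far more between cell classes than between libraries. H2-K1, which presents peptides to CD8 T cells, was highest in LYM-like cells at 1715, 1697 and 1646 CPM in CON, UV and Rux. VEC-like cells followed at 1285, 1094 and 1084 CPM. MYE-like cells (991, 999 and 838 CPM) and LEC-like cells (923, 973 and 906 CPM) overlapped and could not be ordered. KB-like cells ranged from 554 to 886 CPM and FB-like cells from 433 to 486 CPM. PCY-like cells (353 to 391 CPM) overlapped SCH-like cells (223 to 362 CPM). HM-like cells, whose clusters were led by inner root sheath and hair shaft genes such as Krt71 and Krt35 or by the division gene Mki67, were lowest in every library at 159, 186 and 169 CPM.

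B2m, the invariant light chain, had the same low end. It measured 120 CPM in both CON and UV and 127 CPM in Rux in HM-like cells. Its upper end was shared by MYE-like cells (1877, 2121 and 1469 CPM), LYM-like cells (1631, 1692 and 1870 CPM) and VEC-like cells (1676, 1549 and 1398 CPM), which changed order between libraries. The widest differences between Rux and CON were smaller than this range. H2-K1 and H2-D1 were 1.60-fold and 1.56-fold lower in Rux in KB-like cells and 1.62-fold and 1.67-fold higher in SCH-like cells, and B2m was 1.51-fold higher in PCY-like cells. After thinning to 2000 UMIs per cell, a B2m UMI was seen in 17.2% to 23.4% of HM-like cells and in 87.1% to 92.5% of VEC-like cells. Unthinned, the shares were 80.2% to 89.2% and 97.5% to 98.9%. HM-like cells were deep, at a mean of 26956 to 31359 UMIs per cell against 6461 to 7723 in VEC-like cells. The low end of HM-like cells is therefore one of CPM and was not shown per cell. Unthinned, an H2-K1 UMI was seen in 86.3% to 90.7% of HM-like and 85.4% to 89.8% of FB-like cells. In erythroid-like cells, which should hold little of these RNAs, H2-K1 read 67.4 to 116 CPM and B2m 43.2 to 218 CPM. The B2m values of erythroid-like and HM-like cells overlapped.

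**Figure D1:**
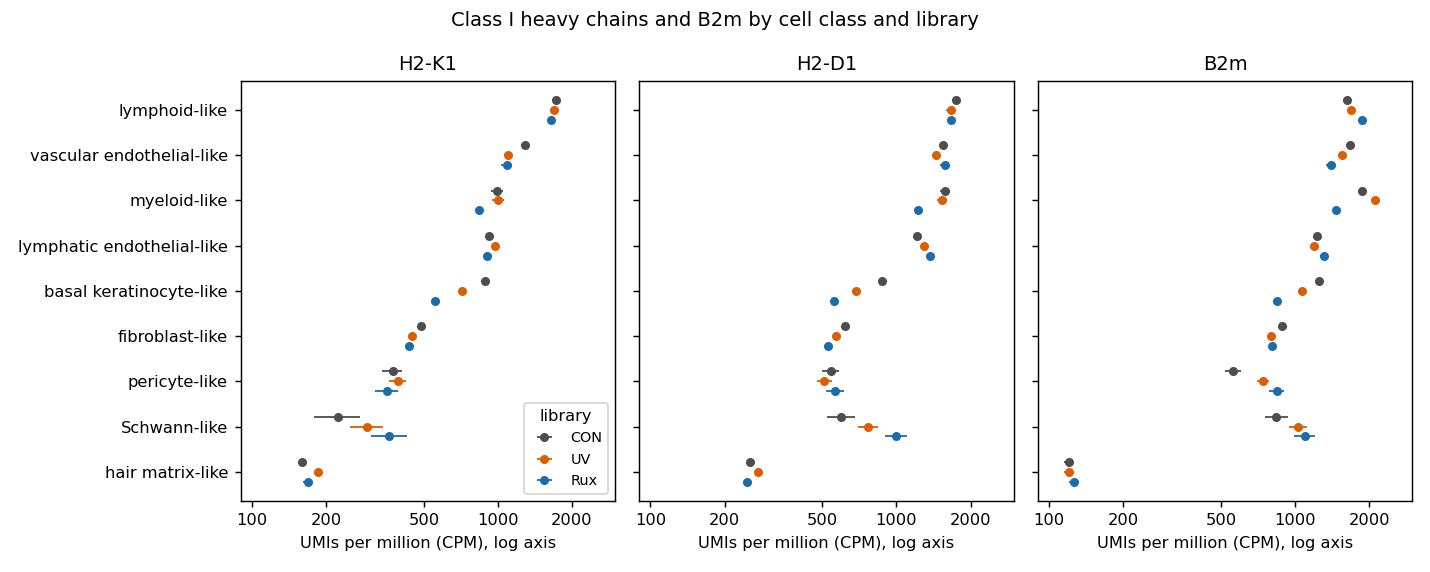
CPM (log axis) of H2-K1, H2-D1 and B2m in 9 cell classes, 1 point per library with its 95% Poisson counting interval. Lymphoid-like cells sit between 1646 and 1715 for H2-K1 and hair matrix-like cells between 159 and 186 in the 3 libraries. Schwann-like and basal keratinocyte-like cells show the widest spread between libraries for H2-K1, in opposite directions.

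In FB-like cells (3483, 5243 and 5084 cells) the class I genes split by the size of the difference. The heavy chains, B2m and Tapbp were nearly level across the libraries. Levels of Tap1, Tap2, the 3 inducible proteasome genes and Nlrc5 were lower in UV than in CON and lower again in Rux. Most of these steps were smaller than 1.5-fold. Counting intervals of both log2 ratios lay below zero for these genes, and also for H2-K1 and H2-D1, whose steps were smaller. H2-K1 measured 486, 446 and 433 CPM and H2-D1 619, 568 and 526 CPM. B2m measured 885, 798 and 805 CPM and Tapbp, the tapasin gene, 169, 170 and 163 CPM. None of these 4 genes differed by 1.5-fold between any pair of libraries.

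Tap1 measured 23.6 CPM (21.7 to 25.7) in CON, 16.7 CPM (15.5 to 18.1) in UV and 12.5 CPM (11.6 to 13.5) in Rux. Tap2, its partner subunit, measured 43.8, 32.5 and 22.4 CPM. The intervals of the 3 libraries did not overlap for Tap1. Psmb8 measured 72.4 CPM (69.0 to 75.9), 46.5 CPM (44.4 to 48.7) and 35.6 CPM (34.1 to 37.2). Psmb9 measured 23.1, 15.7 and 11.1 CPM and Psmb10 72.0, 43.7 and 35.0 CPM. All 3 inducible subunits were highest in CON and lowest in Rux.

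Nlrc5, the class I transactivator, showed the largest difference of the 10 genes in FB-like cells. It measured 28.2 CPM (26.1 to 30.4) in CON, 17.1 CPM (15.8 to 18.4) in UV and 5.68 CPM (5.07 to 6.34) in Rux, on 675, 675 and 319 UMIs. The UV over CON log2 ratio was -0.72 (-0.88 to -0.57) and the Rux over UV log2 ratio was -1.59 (-1.78 to -1.39), 3.00-fold lower. The share of thinned FB-like cells with an Nlrc5 UMI was 4.92%, 3.26% and 1.22% (13.4% in CON and 5.17% in Rux unthinned, at median depths of 6045 and 9880 UMIs).

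For UV over CON in FB-like cells, 3 of the 10 genes (Psmb8, Psmb10 and Nlrc5) were at least 1.5-fold lower and none was at least 1.5-fold higher. Among 8364 genes past the filter on low values, 8.18% were that much lower and 6.18% that much higher. The median log2 ratio of the 10 genes was -0.47, beside -0.10 over all genes tested. FB-like cells came from different clusters in each library, one of 1451, 759 and 880 cells, one of 17, 553 and 170, one of 371, 72 and 276 and one of 15, 174 and 439. With clusters weighted as in CON, the UV over CON median was -0.29, and Nlrc5 (-0.32) and Psmb10 (-0.57) were no longer 1.5-fold lower, while Psmb8 was (-0.65). For Rux over UV, 1 of 10 (Nlrc5) was at least 1.5-fold lower and none higher, beside 5.15% lower and 3.31% higher of 8157 genes. The median there was -0.35, beside 0.03. All 10 passed the filter in both comparisons. The 3 comparisons share libraries and are not independent.

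**Figure D2:**
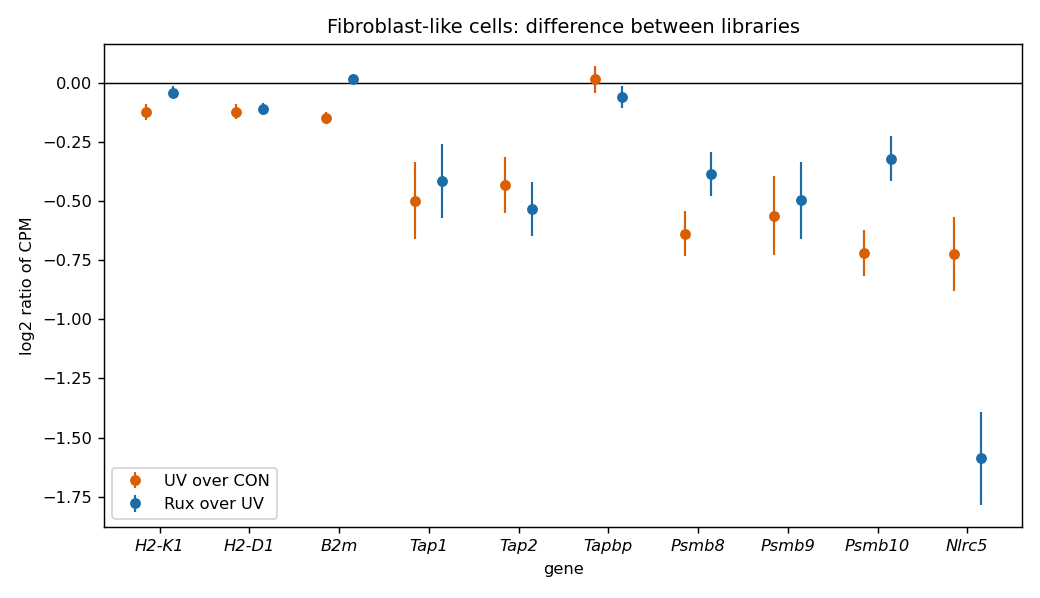
Log2 ratio of CPM in fibroblast-like cells for the 10 class I genes, UV over CON and Rux over UV, with 95% counting intervals. Of H2-K1, H2-D1, B2m and Tapbp, B2m at -0.15 for UV over CON is farthest from zero, and Nlrc5 reaches -1.59 for Rux over UV.

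Inside the fibroblast clusters the Rux over UV direction was shared by every cluster for Nlrc5 and not for the other genes. Nlrc5 was lower in Rux than in UV in 11 of 11 FB-like clusters with at least 50 cells in both libraries, with log2 ratios from -2.39 to -0.57. In most of them Nlrc5 was under the filter on low values, with 10 Rux UMIs in the cluster led by Sntg1 and Arhgap20. In the cluster led by Ptx3 the interval spanned zero, at -0.57 (-1.44 to 0.23) on 36 UMIs in UV and 21 in Rux. Of the 8157 genes tested in FB-like cells, 3.04% were lower in all 11. Psmb9 and Tap2 were lower in 10 of the 11, Psmb8 and Tap1 in 8 and Psmb10 in 7, and B2m was higher in 7 and lower in 4. For UV over CON, with 8 such clusters, Nlrc5 and Tap1 were lower in 7, the 3 inducible proteasome genes in 6 and Tap2 in 5. Apart from the share lower in all 11, no share over all genes was computed for these counts. The median log2 ratio of all genes tested in FB-like cells was -0.10 for UV over CON and 0.03 for Rux over UV. Nlrc5 was higher in UV in the cluster led by Postn (8.40 CPM in CON and 14.9 CPM in UV). A cluster led by Igfbp2 and Col1a1 had the widest step in Psmb10, at 111, 26.5 and 32.2 CPM, on 26 UMIs in UV. H2-K1 was higher in Rux than in UV in 3 of the 11 clusters and lower in 8. The 3 were the Igfbp2-led cluster (log2 ratio 0.41, 0.30 to 0.53), one led by Coch (0.39, 0.25 to 0.54) and one led by Col11a1 (0.20, 0.04 to 0.36). The cluster led by Col11a1 and Lrrc15 held 95, 156 and 361 cells. Its leading genes also held Ednrb and the smooth muscle actin genes Acta2 and Actg2. This cluster also differed from the class as a whole between CON and UV. In it H2-K1 measured 160, 215 and 248 CPM, B2m 303, 479 and 572 CPM and Tapbp had a UV over CON log2 ratio of 1.25 (0.91 to 1.62), while Nlrc5 measured 22.3, 14.2 and 3.03 CPM. Its heavy chains were lowest in CON, and its Nlrc5 lowest in Rux.

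Marker RNA of other lineages in FB-like cells also differed between the libraries. Of 17 marker lists, 6 were highest in CON and 8 lowest in CON. The summed level of 6 KB markers in FB-like cells was 251, 106 and 106 CPM in CON, UV and Rux, of 6 MYE markers 45.8, 24.8 and 29.1 CPM, and of 6 LYM markers 3.76, 1.21 and 1.58 CPM, all 6 detected in each list. In the other direction, LEC markers summed to 355, 501 and 497 CPM, VEC markers to 27.8, 68.2 and 51.2 CPM, erythroid markers to 51.7, 64.2 and 127 CPM, and hair follicle markers, which include Postn, to 378, 423 and 980 CPM. In their own classes the KB, MYE and LYM lists summed to 23143, 18707 and 4376 CPM in CON. The source of this RNA and its part in the FB-like values were not tested. FB-like cells were also deeper in Rux, at a mean of 11050 UMIs per cell against 6876 in CON and 7545 in UV.

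Nlrc5 was lower in Rux than in UV across most cell classes and not in LYM-like or HM-like cells. It passed the filter on low values in all 9 classes and was at least 1.5-fold lower in 7. The shares of all genes that much lower were 5.15% in FB-like, 8.02% in KB-like, 5.03% in LEC-like, 8.82% in VEC-like, 13.3% in MYE-like, 9.44% in PCY-like and 9.16% in SCH-like cells, and 2.89% in HM-like and 6% in LYM-like cells, where Nlrc5 was not called. Being lower in at least 7 of the 9 was seen for 0.748% of the 8157 genes, 61 in all. For this share the filter was applied in FB-like cells only, so genes with few UMIs in other classes could be counted. These 61 also held Stat2, Irf9, Socs1 and Irgm1, interferon pathway genes, and Dct, Pmel and Igkc, transcripts of melanocytes and plasma cells that should not be made in most of the classes.

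The MYE-like cluster was led by Lyz2, Ccl4, Il1b and Clec4e. Its finer name, macrophage-like, came from a marker list and not from these leading genes. In MYE-like cells Nlrc5 measured 99.8 CPM (83.4 to 118) in CON, 76.2 CPM (61.8 to 92.9) in UV and 16.7 CPM (12.6 to 21.8) in Rux. The Rux over UV log2 ratio was -2.18 (-2.69 to -1.69). VEC-like cells measured 104, 93.5 and 31.8 CPM, and LEC-like cells 78.1, 57.1 and 26.3 CPM. SCH-like cells measured 102, 72.2 and 23.6 CPM at low depth. In each of these 4 classes Rux was lowest and outside the intervals of UV.

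In HM-like and LYM-like cells Nlrc5 was not lower in Rux than in UV. HM-like cells measured 12.7, 9.77 and 11.3 CPM, with a Rux over UV log2 ratio of 0.22 (-0.14 to 0.57). The HM-like class also differed in make-up. Its cluster led by Tchh held 48, 149 and 163 cells, and the one with Mki67 among its leading genes 229, 54 and 27. In LYM-like cells (254, 240 and 360 cells) Nlrc5 measured 87.8 CPM (73.8 to 104), 101 CPM (85.7 to 118) and 102 CPM (89.3 to 116). Its Rux over UV log2 ratio there was 0.01 (-0.29 to 0.32), an interval apart from those of the 7 classes above. In the αβ T-like cluster alone, which held 138, 182 and 293 cells, it measured 129, 145 and 137 CPM. The class differed in make-up, since a γδ T-like cluster held 93 cells in CON and 1 to 2 in the irradiated libraries. Another of its clusters, led by Gzmc and Xcl1, held 23, 56 and 66 cells. Ifng, the type II interferon gene, had 94.5% to 97.5% of its UMIs in LYM-like cells and measured 65.7, 157 and 189 CPM there. Whether the class-to-class difference in Nlrc5 exceeds that between mice was not tested.

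**Figure D3:**
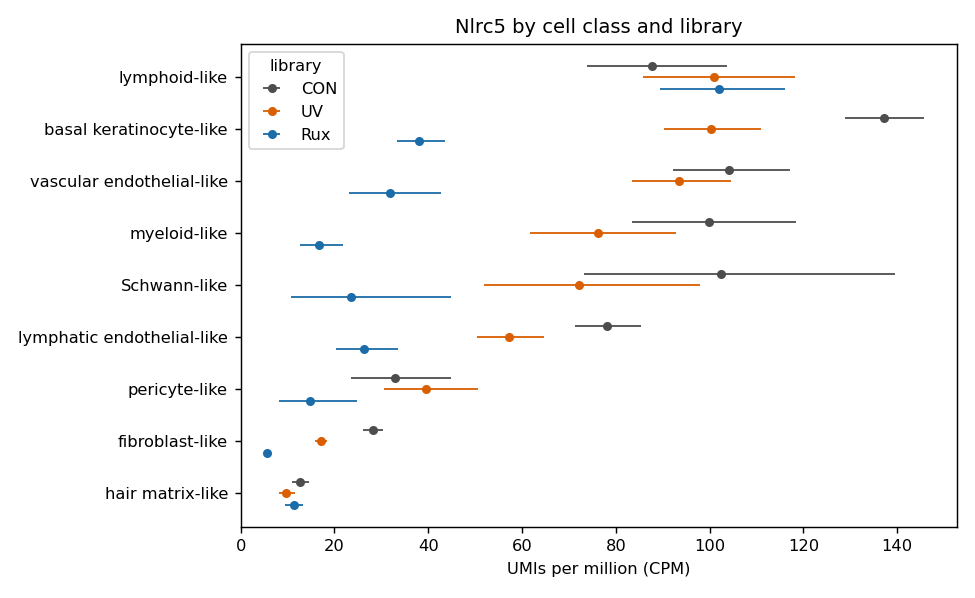
CPM of Nlrc5 in 9 cell classes, 1 point per library with its 95% Poisson counting interval. Rux lies below UV in 7 classes, and the 3 lymphoid-like points lie between 87.8 and 102.

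In KB-like cells all 10 genes had lower values in Rux than in UV, and 7 had lower values in UV than in CON. Psmb8 measured 174, 91.9 and 46.6 CPM, Psmb10 42.3, 18.7 and 13.5 CPM and Nlrc5 137, 100 and 38.1 CPM. H2-K1 measured 886, 713 and 554 CPM and B2m 1246, 1062 and 841 CPM. Tap1 was highest in UV, at 67.2, 82.9 and 55.0 CPM, as were Tap2 (44.3, 50.4 and 30.9 CPM) and Psmb9 (78.6, 81.6 and 45.2 CPM), and for Tap1 alone of the 3 the UV over CON interval lay above zero. For UV over CON 2 of 10 were at least 1.5-fold lower (7.27% of all genes lower, 18.7% higher) and for Rux over UV 5 of 10 (8.02% lower, 8.44% higher), none higher in either. In KB-like cells the basal keratinocyte markers summed to 23143, 17538 and 14905 CPM in CON, UV and Rux. Hair follicle markers there summed to 729, 2169 and 2577 CPM. The KB-like class was made of different clusters in each library, one of 459, 14 and 59 cells, one of 72, 70 and 48 and one of 6, 42 and 141. Within the second, H2-K1 measured 1130, 798 and 749 CPM, Psmb8 171, 112 and 75.8 CPM and Nlrc5 175, 115 and 41.7 CPM. There the Rux over UV log2 ratio of H2-K1 was -0.09 (-0.19 to 0.01) and of Nlrc5 -1.45 (-1.85 to -1.08).

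In MYE-like cells the genes were near level between CON and UV and lower in Rux. Psmb8 measured 171, 199 and 129 CPM, Tapbp 202, 241 and 157 CPM and B2m 1877, 2121 and 1469 CPM. For UV over CON none of the 10 was 1.5-fold lower or higher (10.5% and 7.06% of all genes). For Rux over UV 5 of 10 were lower (Tap1, Tap2, Tapbp, Psmb8 and Nlrc5) and none higher (13.3% and 7.6%). In VEC-like cells none of the 10 was 1.5-fold lower or higher in UV than in CON (6.76% and 6.47% of all genes), and Tap1 and Nlrc5 were lower in Rux than in UV and none higher (8.82% and 3.88%). Tap1 there measured 62.5, 59.3 and 36.9 CPM. VEC-like cells came from one cluster of 225, 383 and 129 cells and one of 181, 89 and 50.

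In LYM-like cells none of the 10 was 1.5-fold lower or higher in either comparison, beside 12.7% and 8.72% of all genes for UV over CON and 6% and 2.88% for Rux over UV. H2-K1 differed by a Rux over UV log2 ratio of -0.04 (-0.12 to 0.03) and B2m by 0.14 (0.07 to 0.22). Tapbp was lower in Rux, at 125 CPM in UV and 91.5 CPM in Rux. In the αβ T-like cluster alone the UV over CON log2 ratio of Psmb10 was -0.65 (-1.31 to -0.002), past 1.5-fold, on 37 and 48 UMIs. That of Psmb8 was -0.40 (-0.68 to -0.13). Tap2, Tapbp and Nlrc5 had higher values in UV there, with intervals spanning zero. No share over all genes was computed for that cluster.

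The inducible proteasome was compared with the standard subunits it replaces, as the share of each pair's UMIs that came from the inducible gene. In FB-like cells Psmb8 made 48.8% (47.2 to 50.5) of Psmb8 and Psmb5 in CON, 45.9% (44.4 to 47.5) in UV and 37.3% (36.0 to 38.6) in Rux. Psmb10 made 48.9%, 37.1% and 32.6% of Psmb10 and Psmb7, and Psmb9 19.5%, 17.3% and 13.3% of Psmb9 and Psmb6. Psmb5 itself was lower in UV (54.8 CPM) and Rux (59.8 CPM) than in CON (75.8 CPM), so the Psmb8 share moved less than its level.

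In KB-like cells the Psmb8 share was 50.7%, 35.8% and 23.6%, and in MYE-like cells 72.3%, 67.8% and 50.5%. In MYE-like cells Psmb5 itself was higher in UV (94.2 CPM) and Rux (127 CPM) than in CON (65.5 CPM). Psmb8 measured 171, 199 and 129 CPM there, so the share also moved with its partner. The Psmb8 share in the αβ T-like cluster was 70.5%, 70.7% and 70.0%. HM-like cells had 3.15% to 3.78% in the 3 libraries. These are shares of 3′ counts of RNA and not of assembled proteasomes.

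**Figure D4:**
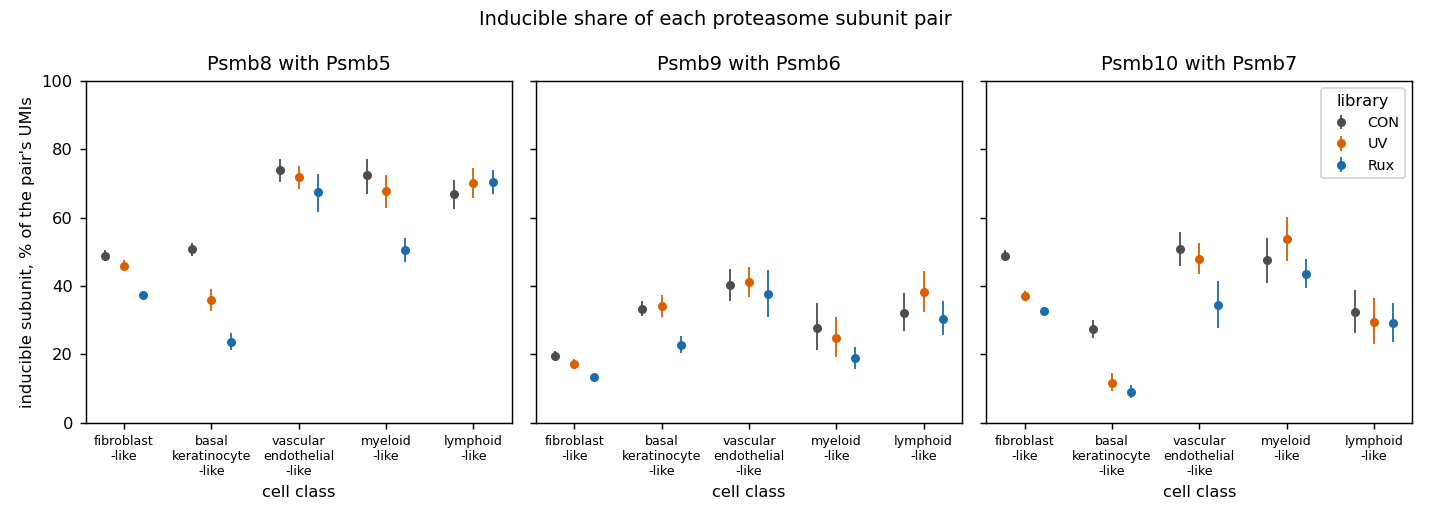
Share of UMIs from the inducible gene of each proteasome pair (percent) in 5 cell classes and 3 libraries, with 95% exact binomial intervals. In fibroblast-like cells Psmb8 goes from 48.8% in CON to 37.3% in Rux, and the lymphoid-like points overlap.

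The opposite direction was seen for the heavy chains in an epithelial cluster led by Lgr5, Lhx2 and Tbx1, genes of hair follicle stem and progenitor cells, which stayed between the basal keratinocyte and hair follicle lists and was left unnamed (654, 261 and 128 cells). H2-K1 measured 188 CPM in CON, 468 CPM in UV and 479 CPM in Rux, a UV over CON log2 ratio of 1.32 (1.24 to 1.39). B2m measured 328, 544 and 613 CPM. Nlrc5 was highest in UV and lowest in Rux, at 41.8, 79.5 and 27.5 CPM. Between UV and Rux the log2 ratio was 0.03 (-0.07 to 0.13) for H2-K1 and -1.52 (-1.92 to -1.16) for Nlrc5. This cluster was picked out after its values were seen.

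**Figure D5:**
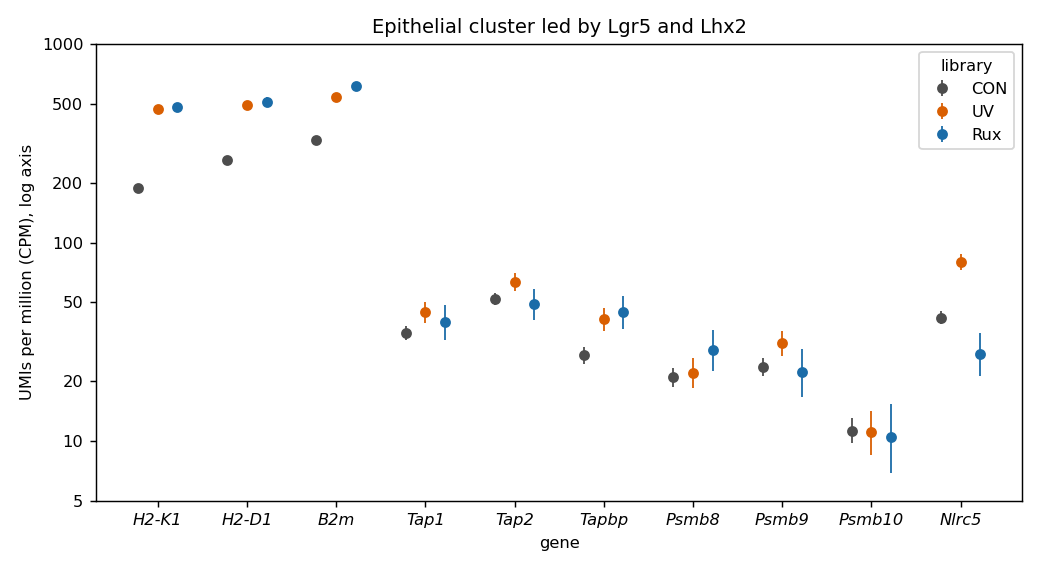
CPM (log axis) of the 10 class I genes in the epithelial cluster led by Lgr5 and Lhx2, 1 point per library with its 95% Poisson counting interval. H2-K1 is 188 in CON and 468 and 479 in UV and Rux, and Nlrc5 is 79.5 in UV and 27.5 in Rux.

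Among other genes of the pathway, 22 regulators of class I transcription were counted. In FB-like cells 18 passed the filter, of which 3 were at least 1.5-fold lower in UV than in CON (Irf1, Irf9 and Socs1) and 4 in Rux than in UV (Irf7, Irf9, Stat2 and Socs1), none higher, beside the shares of all genes given above. Irf1, an interferon-induced activator, measured 643 CPM in CON, 215 in UV and 185 in Rux. Socs1, which restrains JAK signalling, measured 96.3, 49.5 and 17.8 CPM, and Stat2, a partner in the interferon-activated STAT complex, 56.1, 47.1 and 20.4 CPM. The larger step lay between CON and UV for Irf1 and between UV and Rux for Stat2.

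For Rux over UV, 2 to 7 regulators were at least 1.5-fold lower in each of the other 8 classes. They were 2 of 15 in HM-like (2.89% of all genes), 2 of 18 in LEC-like (5.03%), 5 of 15 in PCY-like (9.44%) and 3 of 8 in SCH-like cells (9.16%). LEC-like cells also had 1 regulator that much higher (6.97% of all genes), and HM-like, PCY-like and SCH-like cells had none. The shares of all genes that much lower in the remaining classes are given with Nlrc5 above. In VEC-like cells 7 of 19 were at least 1.5-fold lower and none higher, among them Irf1 (718 to 323 CPM) and Stat2 (99.6 to 31.1 CPM). In MYE-like cells 5 of 19 were lower and none higher, with Irf7, the regulator of type I interferon, at 77.0 CPM in UV and 16.1 CPM in Rux. In KB-like cells 6 of 18 were lower, with Irf1 at 186 and 48.3 CPM. In LYM-like cells 3 of 20 were lower (Irf1, Stat2 and Nfyc) and 1 higher (Ifngr2), and whether the classes differ was not tested. For UV over CON, 5 of 18 regulators were higher and 1 lower in KB-like cells (18.7% and 7.27% of all genes), 2 higher and 4 lower of 18 in MYE-like cells (7.06% and 10.5%), and 4 higher and 2 lower of 20 in LYM-like cells (8.72% and 12.7%). The single lower regulator in KB-like cells and the 2 in LYM-like cells are near or under those shares. None of 19 differed by 1.5-fold in VEC-like cells.

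Of 10 further class I heavy chains, 7 passed the filter in FB-like cells. H2-Q4, a heavy chain of the same family, measured 193, 136 and 67.6 CPM. It was the one at least 1.5-fold lower for Rux over UV, and H2-Q7 the one for UV over CON (16.8 and 10.3 CPM). The shares of all genes that much lower were 5.15% and 8.18%. In MYE-like cells 4 of 6 were that much lower in Rux than in UV (H2-Q6, H2-T22, H2-T23 and H2-M3) and none higher. The shares of all genes were 13.3% and 7.6%. For UV over CON in these cells 1 was that much higher and 2 lower (7.06% and 10.5% of all genes). H2-T22 measured 21.3, 45.5 and 20.1 CPM there. H2-T23, which presents to natural killer receptors, measured 126 CPM in UV and 72.1 CPM in Rux there. Of 9 further proteasome genes, none was 1.5-fold lower or higher in FB-like cells in either comparison. Their median log2 ratio there was -0.35 for UV over CON, beside -0.10 over all genes tested and -0.47 for the 10 class I genes. For Rux over UV it was 0.01, beside 0.03 over all genes tested. Of 8 further loading and trimming genes, Tapbpl was lower in UV than in CON in FB-like cells (14.9 and 9.86 CPM), beside 8.18% of all genes. None of the 7 past the filter was lower or higher for Rux over UV. Of 7 receptors of class I, none passed the filter in FB-like cells and 5 did in LYM-like cells. In the latter Klrc1 was higher in UV than in CON (149 and 241 CPM), beside 8.72% of all genes. Cd8b1 was higher in Rux than in UV there (53.1 and 92.8 CPM), beside 2.88%. The clusters behind LYM-like cells differed in cell numbers between libraries, and their part in these values was not tested.

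Across the 33 profiles of class and library with at least 100 cells, the genes most like the mean of the 10 were Psme1 (Pearson r = 0.86), an interferon-induced proteasome activator, and H2-M3 (r = 0.84), a non-classical heavy chain. Then came Gm19684, H2-Q7, Car5b, H2-Q6, Shisa5, Ly6e, Tmsb4x and Nmi (0.82 to 0.80). Of the 10 themselves, Psmb8 was closest to the other 9 (0.96) and Psmb10 least close (0.65). H2-K1 went with H2-D1 (0.90) and Tap1 with Nlrc5 (0.90). The profiles share 3 libraries and differ in depth, so these values are descriptions.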

How the data were processed

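The authors deposited, for each of 3 libraries, raw UMI counts per gene and cell (10x Chromium 3′ v3.1, mm10). The file headers name Cell Ranger 7.0.0, and the methods and the submitters' processing notes 6.1.2. Whether intronic reads were counted is not given in the sources used here, and Nlrc5 spans 92.9 kb. Cells under 200 genes or over 10% mitochondrial UMIs were dropped, and doublets were removed by Scrublet score in scanpy 1.11.5 at 0.8% per 1000 cells. Seurat 5.3.0 in R 4.3.3 clustered the cells on 1992 variable genes, with the class I and related genes left out, 30 components and a resolution of 1.5. A cluster was named from lineage markers, at least 3 of them each detected in 10% of its cells. It stayed unnamed when lineages competed, when immunoglobulin genes led it, or when no lineage had 3 markers above the average cluster. It also stayed unnamed when it had few UMIs and no marker of its lineage among its 10 leading genes. By this last rule a cluster nearest the fibroblast list, of 476, 378 and 379 cells, was left out of FB-like cells.

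UMIs were summed per class and library, divided by the total, and compared as log2 ratios with 0.5 UMI added. The filter was a mean of 10 CPM and 50 UMIs in the pair, and a call was a difference of at least 1.5-fold. Intervals were exact Poisson and binomial. Only those of the log2 ratios were run on simulated counts, for FB-like, KB-like and MYE-like cells. Those counts were drawn as Poisson, so the run cannot show variation beyond counting. Named genes were the 10, their 3 standard proteasome partners, the 5 largest differences per class among the listed genes, and the 10 most alike profiles, with others named after their values were seen: the Lgr5-led, Col11a1-led, Postn-led and Igfbp2-led clusters, the genes among the 61 and those of single sentences. The motif GAANNGAAA was added after the sequences were seen. One listed regulator is not reported here and was left out of the counts. The genes and lists were chosen with earlier results of these data known. No paired analysis was possible because each condition had 1 library.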

Additional observations from a re-analysis of the deposited data

Results flagged for a closer look

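In 4 cases a class I gene was at least 1.5-fold higher in one cell class and at least 1.5-fold lower in another in the same comparison, with both counting intervals away from zero. The differences between classes were not tested. For Rux over CON, H2-D1 had a log2 ratio of 0.74 in SCH-like and -0.64 in KB-like cells, and H2-K1 of 0.70 in SCH-like and -0.68 in KB-like cells. Tap2 had 0.62 in LYM-like and -0.97 in FB-like cells in the same comparison. In the αβ T-like cluster alone Tap2 had 0.36 (-0.19 to 0.96), short of 1.5-fold and with an interval spanning zero. For UV over CON, Psmb10 had 0.59 in HM-like and -1.17 in KB-like cells. SCH-like cells had few UMIs, and KB-like cells came from different clusters in each library. The clusters behind HM-like, LYM-like and FB-like cells also differed in cell numbers between libraries.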

How the results depend on the processing

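Other settings gave 672 further values for 111 results, of which 611 lay within the counting interval of the reported value (counts within 1.5 times), 61 outside it and 0 called values changed sign. With FB-like clusters weighted as in CON, the median log2 ratio of the 10 genes in FB-like cells was -0.29 for UV over CON and -0.77 for Rux over CON. That setting keeps only clusters with 50 cells in every library, and the cause was not tested. The Rux over UV log2 ratio of Nlrc5 in FB-like cells ranged from -1.64 to -1.51 over all settings. At a resolution of 0.8 no MYE-like class was formed, so it has no value there. No paired analysis was possible because each condition had 1 library. Depth limits SCH-like and PCY-like cells most.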

Other observations

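Unnamed epithelial clusters between the hair matrix and basal keratinocyte lists were also at the low end. In the cluster led by Slc16a7 and Wdr12, with 600, 273 and 184 cells, H2-K1 measured 178, 164 and 170 CPM and B2m 169, 160 and 185 CPM. In the cluster led by Itga2 and the histone gene Hist1h1b, with 484, 395 and 202 cells, H2-K1 measured 167, 181 and 149 CPM. Fibroblasts led by Coch and Crabp1 (43, 102 and 71 cells) were at the high end of FB-like clusters, with H2-K1 at 1455, 1081 and 1419 CPM and B2m at 1916, 1430 and 1849 CPM. Neutrophil-like cells had H2-D1 at 2207 CPM in CON (50 cells) and 1248 CPM in Rux (225 cells). Melanocyte-like cells had Nlrc5 at 27.9 CPM in CON and 7.33 CPM in Rux, on 155 and 38 cells. All of these rest on few cells or were singled out after their values were seen.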
